A study of Mus musculus with 7 samples.

Results

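The genes described here encode 10 receptor chains for myeloid and inflammatory cytokines, chosen by name from the 48440 genes of the deposited table of normalized counts: Csf2ra, Csf2rb, Csf2rb2, Csf3r, Il3ra, Il6ra, Il6st, Ifngr1, Ifnar1 and Il1r1. They were measured in LSK cells, the bone marrow cells without lineage markers (Lin-) that carry Sca1 and cKit and that include the hematopoietic stem cells and multipotent progenitors. The study asked what PROSER1, a protein that interacts with the TET enzymes of DNA demethylation, does in these cells. Bone marrow of wild-type donors, or of donors with a constitutive PROSER1 KO made with an endonuclease, was transplanted into lethally irradiated C57BL/6 recipients (9.5 Gy), and LSK cells were sorted at day 77 after transplantation. PolyA RNA of 4 wild-type and 3 PROSER1 KO biological replicates was sequenced with a directional library kit. Both groups passed through irradiated hosts, so that host cells that survived irradiation could remain in either, no treatment was given, and the ages of the mice are not stated.

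The libraries held 33143619 to 45140743 read pairs on genes. Each of the 10 receptor genes was covered by 489 to 8791 read pairs in every library, far above the 3 read pairs that a count of 0 allows (2.54 to 3.48 normalized counts), a limit that covers counting error only. A normalized count is the number of read pairs on a gene divided by a size factor of the library, and it is the quantity meant below unless a value is given per kilobase. Fold changes are log2 ratios of the libraries labelled PROSER1 KO over wild-type from limma on log2(normalized count + 1), with its standard error (SE). A gene was called at a Benjamini-Hochberg adjusted p under 0.05, over all 16251 genes tested, together with a fold change above 1.5.

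Cytokine receptors of this kind have no kinase of their own: the ligand brings chains together, and JAK kinases bound to their tails phosphorylate STAT factors, whereas the IL-1 receptor signals through MyD88 and IRAK kinases. GM-CSF, IL-3 and IL-5 each have an alpha chain of their own and share the beta chain Csf2rb, and mice carry an additional beta chain, Csf2rb2, that works with the IL-3 receptor alone. In bone marrow these receptors set the output of neutrophils, monocytes and eosinophils, and interferons and IL-1 acting on stem cells can draw them out of quiescence.

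Proser1 (ENSMUSG00000049504), the targeted gene, lies on chromosome 3 from 53463666 to 53481755 on the forward strand of GRCm38. It had 2019, 2153, 2103 and 2077 normalized counts across wild-type replicates 1 to 4, against 2464, 2359 and 2338 in those labelled PROSER1 KO. Its log2 fold change was 0.19 (SE 0.049, limma adjusted p = 0.204), with every library labelled PROSER1 KO above every wild-type library. RNA of the targeted gene was therefore not lower in the libraries labelled PROSER1 KO, and each direction given below rests on the labels.

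Marker genes were read beside the label of the cells, which they cannot check, as no library of other cells was there to compare. Kit, which encodes cKit, stood at 25535 to 32357 normalized counts across wild-type libraries and 25761 to 29960 in those labelled PROSER1 KO, and Ly6a, which encodes Sca1, at 4006 to 6822 and 3961 to 5682. RNA of other cells was present as well. The 16 B-lineage and plasma cell genes summed to 1381425 to 3230059 normalized counts across wild-type libraries, led by the immunoglobulin heavy chain gene Ighm, and to 1303064 to 1911694 in those labelled PROSER1 KO. Immunoglobulin genes took 9.22, 7.66, 5.55 and 13.0% of the read pairs of wild-type replicates 1 to 4 and 7.44, 6.28 and 9.40% of those of PROSER1 KO replicates 1 to 3. The part of these cells in the results was not tested. In such bulk samples, fewer cells of a type and less RNA per cell cannot be told apart.

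All 10 receptor genes had a mean of at least 10 normalized counts and were tested. By limma, 1 of the 10 was called, Csf2rb2, which was higher in the libraries labelled PROSER1 KO; the share called over all 16251 genes was 0.258%, that is 42 genes, 20 higher and 22 lower. The same gene was the receptor gene called by edgeR (0.246% called over all tested genes) and by DESeq2 (0.997%). The number of genes called over the genome was 23 without PROSER1 KO replicate 2. The groups did not overlap for 2 of the 10, Csf2rb2 and Il6ra, beside 10% of all tested genes. An unadjusted p under 0.05 was found for 3 of the 10, Csf2rb, Csf2rb2 and Il6ra, beside 9.73%. Log2 fold changes were above 0 for 8 of the 10, beside 50.6%, and their median was 0.08 against 0.0015 over all tested genes. With 1 library left out this median ran from 0.04 (without PROSER1 KO replicate 1) to 0.12 (without PROSER1 KO replicate 2).

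**Figure D1:**
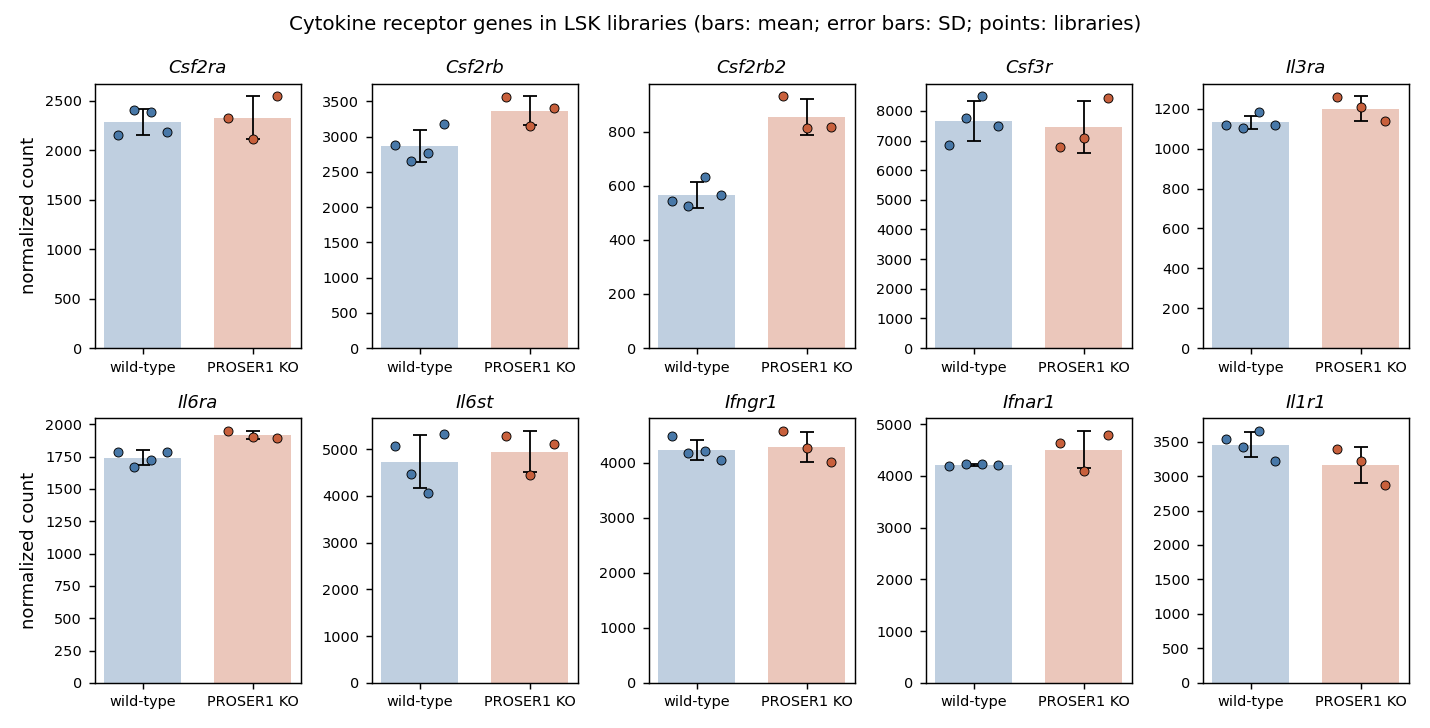
Normalized counts of the 10 receptor genes (y axes, from 0) in wild-type and PROSER1 KO libraries. Points are libraries, bars group means and error bars SD (n = 4 and n = 3). Csf2rb2 and Il6ra are the genes whose groups do not overlap.

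For each of the 9 receptor genes that were not called, the 95% interval of the log2 fold change lay within a 1.5-fold change in either direction. The interval included 0 for 7 of them, and lay above 0 for Csf2rb and Il6ra. Intervals and standard errors describe these 7 libraries and do not show that the 7 genes were equal between the groups.

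**Figure D2:**
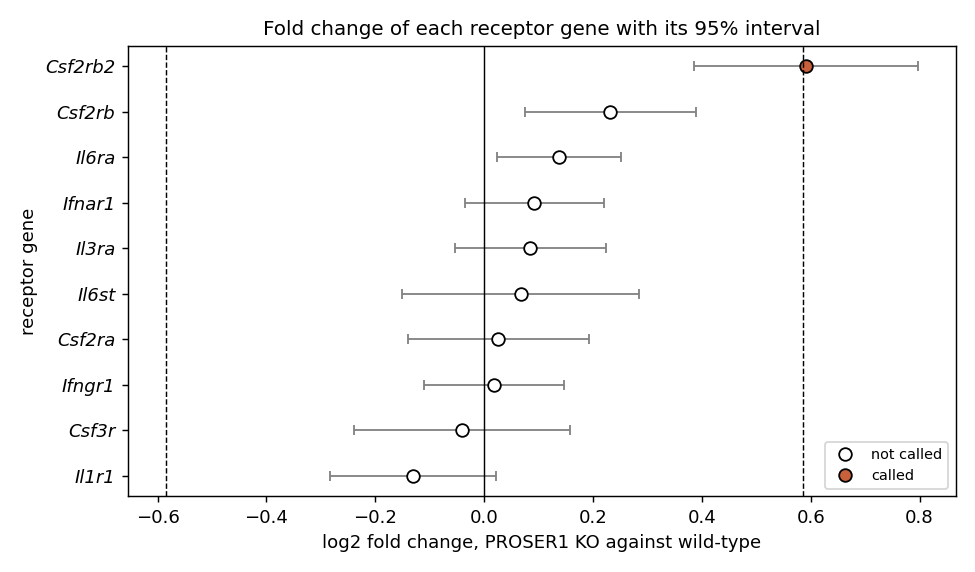
Log2 fold change of each receptor gene (x axis, PROSER1 KO against wild-type; genes on the y axis) with its 95% interval from limma. Dashed lines mark 1.5-fold, and the filled point is the gene called, Csf2rb2 at 0.59, which sits next to the dashed line.

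The beta chain genes Csf2rb2 (ENSMUSG00000071714; chromosome 15, 78282507 to 78305721, reverse strand) and Csf2rb (ENSMUSG00000071713; chromosome 15, 78325752 to 78353847, forward strand) are neighbours that point away from each other, with 20031 bases between their starts. Their coding sequences in GENCODE M21 are near copies. Over 2628 aligned bases of a transcript of Csf2rb2 (2634 coding bases) and a transcript of Csf2rb (2688 coding bases), 2503 were identical (95.2%) and 125 differed. The longest identical stretch is shown because a read pair that falls inside it cannot be told to come from one gene rather than the other, unlike a pair with a mate in a part that differs. It spans 242 coding bases, in exon 14 of Csf2rb2 (chr15:78284630-78284871, reverse strand of GRCm38) and in exon 15 of Csf2rb (chr15:78348577-78348818, forward strand), and is written here 5′ to 3′ along the transcripts.
Csf2rb2 and Csf2rb: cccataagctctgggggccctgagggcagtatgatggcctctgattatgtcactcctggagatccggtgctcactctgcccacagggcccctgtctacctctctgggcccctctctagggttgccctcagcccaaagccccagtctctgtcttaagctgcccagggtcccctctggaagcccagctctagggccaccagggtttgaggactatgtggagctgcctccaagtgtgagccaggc

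Elsewhere the genes can be told apart. The window of 90 coding bases with the most differences, 16, lies in exon 4 of Csf2rb2 (chr15:78294345-78294434, reverse strand) and exon 5 of Csf2rb (chr15:78338897-78338986, forward strand), and is shown with the differing bases in capitals.
Csf2rb2: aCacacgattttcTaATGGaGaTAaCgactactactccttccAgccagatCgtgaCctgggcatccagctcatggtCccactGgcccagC
Csf2rb: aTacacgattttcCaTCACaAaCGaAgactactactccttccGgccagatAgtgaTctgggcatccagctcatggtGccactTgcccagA

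Over all annotated transcripts, 18.4% of the 50-base windows of Csf2rb2 occurred identically in Csf2rb, 10.6% of the 75-base windows, 6.82% of the 100-base windows and 3.34% of the 150-base windows. For Csf2rb the shares were 12.3, 7.15, 4.63 and 2.30%. These shares are for single windows and not for read pairs, of which 1 mate can settle the gene. The read length and the treatment of reads with several matches are not stated, so the counts of both genes carry this uncertainty, which bears on both groups of libraries. Each gene also holds a microRNA gene on its own strand, Mir7676-1 in Csf2rb2 and Mir7676-2 in Csf2rb, with 62 exon bases in common.

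Csf2rb2, the beta chain specific to the IL-3 receptor, had 542, 524, 632 and 567 normalized counts across wild-type replicates 1 to 4, against 931, 813 and 816 across PROSER1 KO replicates 1 to 3. Every library labelled PROSER1 KO was above every wild-type library, and the gap between the groups was wider than the spread within either. Group means were 566 ± 47.3 for wild-type and 853 ± 66.9 for PROSER1 KO (SD, n = 4 and n = 3). limma gave a log2 fold change of 0.59 (SE 0.091, 95% interval 0.39 to 0.80, adjusted p = 0.0352), a fold change of 1.51, so the call lies close to both thresholds. The gene was also called by the other tools, with an adjusted p of 0.0335 by edgeR and 7.71e-06 by DESeq2, the tool the study used. The limma call, however, depended on single libraries. Without wild-type replicate 3 the gene was called (adjusted p = 0.0286). Leaving out wild-type replicate 1, 2 or 4 gave adjusted p-values of 0.127, 0.116 and 0.0837 in limma, and leaving out PROSER1 KO replicate 1, 2 or 3 gave 0.137, 0.103 and 0.134, with log2 fold changes of 0.57, 0.56, 0.59, 0.53, 0.63 and 0.62 in the same order. The adjusted p was 0.118 in limma without a mean-variance trend, and with a pseudocount of 10 the log2 fold change of 0.58 fell short of 1.5-fold (adjusted p = 0.0375).

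Csf2rb, the beta chain shared by the GM-CSF, IL-3 and IL-5 receptors, had 2879, 2650.3, 2771 and 3172 normalized counts across wild-type libraries and 3553, 3148 and 3399 in those labelled PROSER1 KO. The groups overlapped, since wild-type replicate 4 lay above PROSER1 KO replicate 2. Its log2 fold change was 0.23 (SE 0.070, 95% interval 0.075 to 0.39), with an unadjusted limma p of 0.0084 and an adjusted p of 0.309, and Csf2rb was not called. On the scale of normalized counts the difference of means was 498 for Csf2rb, 17.4% of its wild-type mean, and 287 for Csf2rb2, 50.7% of its wild-type mean.

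Summed, the beta chain genes had 3421, 3174, 3403 and 3739 normalized counts across wild-type replicates 1 to 4, against 4484, 3961 and 4215 across PROSER1 KO replicates 1 to 3. The groups did not overlap, and the mean of the sum was 22.9% higher in the libraries labelled PROSER1 KO. Csf2rb2 made up 15.9, 16.5, 18.6 and 15.2% of the sum across wild-type libraries and 20.8, 20.53 and 19.4% in those labelled PROSER1 KO. These shares did not overlap either (means 16.5 ± 1.47 and 20.2 ± 0.747%, SD), with wild-type replicate 3 nearest to the other group. Per kilobase of exon the mean shares were 23.3 and 28.0%. Neither the sum nor the share was tested.

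The promoter of Csf2rb2 is shown because this was the receptor gene called. It covers the 250 bases before the start that RefSeq gives (chr15:78305722-78305971, reverse strand of GRCm38.p6), and capitals mark motif matches.
Csf2rb2 promoter: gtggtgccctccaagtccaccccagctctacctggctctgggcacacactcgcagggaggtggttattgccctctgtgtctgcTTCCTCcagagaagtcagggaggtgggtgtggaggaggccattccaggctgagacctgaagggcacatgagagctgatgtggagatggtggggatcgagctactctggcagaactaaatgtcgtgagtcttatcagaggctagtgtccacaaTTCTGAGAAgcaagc

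Both strands were searched for 5 motifs, and each is given with its share of all 32851 promoters of this length. The core letters bound by PU.1, GAGGAA, occurred in 23.3% of promoters. The letters of GATA factors, AGATAA, occurred in 9.99% of promoters. STAT factors were searched as TTCNNNGAA, which occurred in 7.02%, RUNX factors as TGTGGT, which occurred in 14.0%, and C/EBP factors as TTNCNNAA, which occurred in 36.8%. The Csf2rb2 promoter held 1 match to the PU.1 letters, on the opposite strand of the printed letters, and 1 match to the STAT letters near its end. RefSeq promoters were matched for 9 of the 10 receptor genes, 10 promoters in all, and none was matched for Csf2rb. A match describes letters and is no evidence of binding.

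Around the pair, 24 annotated genes lay within 250 kb, 19 of them in the table and 10 of them tested. By limma 0 of these 10 were called, as by edgeR and DESeq2 (0.258, 0.246 and 0.997% over all tested genes). An unadjusted limma p under 0.05 was found for 2 (Ncf4 and Gm6723), beside 9.73% of all tested genes. Log2 fold changes of the 10 were 5 above and 5 below 0 with a median of 0.001. The nearest neighbour on the side of Csf2rb2, Ncf4, a subunit of the phagocyte NADPH oxidase, had 1670 to 1939 normalized counts across wild-type libraries and 1401 to 1676 in those labelled PROSER1 KO (limma log2 fold change -0.18, adjusted p = 0.484). Il2rb, the beta chain of the IL-2 receptor, had the lowest log2 fold change, -0.56 (SE 0.29, adjusted p = 0.577), with overlapping groups. Gm6723, at only 5.75 to 11.6 normalized counts across wild-type libraries and 14.4 to 38.6 in those labelled PROSER1 KO, had the highest, 1.35 (SE 0.45, adjusted p = 0.366), and was the 1 neighbour whose groups did not overlap, beside 10% of all tested genes. The others were Ift27 (-0.003), Tst (0.09), Mpst (0.11), Kctd17 (-0.13), C1qtnf6 (-0.04), Rac2 (0.01) and Cyth4 (0.005), given as log2 fold changes. The signs of Ift27, C1qtnf6, Rac2 and Cyth4 changed when single libraries were left out.

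**Figure D3:**
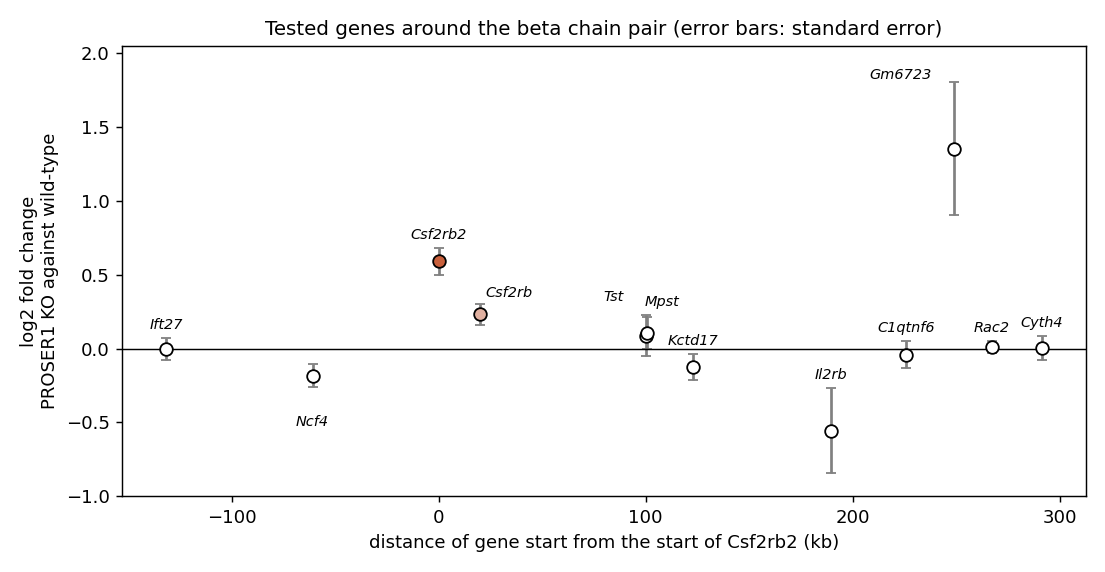
Log2 fold change (y axis, PROSER1 KO against wild-type, error bars SE) of the tested genes around the beta chain pair, by distance of the gene start from the start of Csf2rb2 in kb (x axis). The dark filled point is Csf2rb2 (0.59), the light filled point Csf2rb (0.23), and open points are the 10 neighbours, of which Gm6723 at 1.35 has few counts.

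The 5 tested genes most like Csf2rb2 over the 7 libraries, by Pearson correlation of log2(normalized count + 1), were Srpk2 (0.991), B3gntl1 (0.989), Mgat5 (0.984), Gria3 (0.984) and Appl1 (0.979). None was called by limma. The log2 fold changes were smaller than that of Csf2rb2, 0.19 for Srpk2, 0.10 for B3gntl1, 0.22 for Mgat5, 0.31 for Gria3 and 0.05 for Appl1. All 5 have groups that do not overlap, so the correlations include the difference between the groups.

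Csf2ra, the alpha chain that binds GM-CSF (ENSMUSG00000059326; chromosome 19, 61223957 to 61228429, reverse strand), had 2150.2, 2405, 2390 and 2185 normalized counts across wild-type libraries and 2325, 2115 and 2544 in those labelled PROSER1 KO. PROSER1 KO replicate 2 was the lowest and PROSER1 KO replicate 3 the highest of all 7 libraries, so the wild-type values lay inside the range of the other group. limma gave a log2 fold change of 0.03 (95% interval -0.14 to 0.19, adjusted p = 0.943). Its sign changed without wild-type replicate 1 (-0.002) and without PROSER1 KO replicate 3 (-0.04).

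Il3ra, the alpha chain that binds IL-3 (ENSMUSG00000068758; chromosome 14, 14346275 to 14356011, forward strand), had 1118, 1105, 1182 and 1121 normalized counts across wild-type libraries and 1260.2, 1207 and 1137 in those labelled PROSER1 KO. Wild-type replicate 3 lay above PROSER1 KO replicate 3, and the groups overlapped. Its log2 fold change was 0.09 (95% interval -0.05 to 0.22, limma adjusted p = 0.698). Il3ra shares 46 exon bases with Gm48860 on the opposite strand, and the use of the strand in counting is not stated.

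The balance of chains was taken per kilobase of exon. Csf2rb stood at 0.528, 0.435, 0.458 and 0.573 of the level of Csf2ra across wild-type libraries and at 0.603, 0.587 and 0.527 in those labelled PROSER1 KO, which overlapped. Both beta chain genes together stood at 1.35, 1.27, 1.29 and 1.47 times the level of Il3ra across wild-type libraries and at 1.61, 1.49 and 1.67 times in those labelled PROSER1 KO, without overlap, although wild-type replicate 4 and PROSER1 KO replicate 2 were close. Csf2rb over Il5ra, the alpha chain for IL-5, was 3.91, 4.22, 4.19 and 2.58 across wild-type libraries and 5.35, 6.87 and 4.27 in those labelled PROSER1 KO, again without overlap. Wild-type replicate 4 was low here, and its Il5ra was high, at 605 normalized counts against 308 to 362 in the other wild-type libraries. That library also had the highest summed level of 6 eosinophil genes, 9221 normalized counts against 3338 to 5956 in the rest. Il5ra is among them, and Prg2 alone made up 8190 of the 9221. Not every gene of this list was highest in that library. Its sum of B-lineage and plasma cell genes was the highest of all libraries as well (3230059). The part of either kind of cell in the ratio was not tested.

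Csf3r, the receptor for G-CSF, which pairs with itself (ENSMUSG00000028859; chromosome 4, 126024550 to 126044440, forward strand), had 6861, 7746, 8493 and 7474 normalized counts across wild-type libraries and 6793, 7095 and 8440.1 in those labelled PROSER1 KO. The groups covered nearly the same range. limma gave a log2 fold change of -0.04 (95% interval -0.24 to 0.16, adjusted p = 0.926), and its sign changed without wild-type replicate 3 (0.01) and without PROSER1 KO replicate 1 (0.02). Mature neutrophils carry much Csf3r. The 11 mature neutrophil genes, led by Ngp, summed to 5548, 2127, 997 and 1183 normalized counts across wild-type libraries and to 1178, 1749.9 and 3932 in those labelled PROSER1 KO. Wild-type replicate 1 had the highest neutrophil sum and the second lowest Csf3r, and PROSER1 KO replicate 3 had the second highest of both. The part of such cells in Csf3r was not tested.

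Il6ra, the chain that binds IL-6 (ENSMUSG00000027947; chromosome 3, 89864059 to 89913196, reverse strand), had 1789, 1670.4, 1721 and 1788 normalized counts across wild-type libraries and 1949, 1905 and 1891 in those labelled PROSER1 KO. Every library labelled PROSER1 KO lay above every wild-type library, by a small margin. Group means were 1742 ± 57.2 for wild-type and 1915 ± 29.96 for PROSER1 KO (SD, n = 4 and n = 3). Its log2 fold change was 0.14 (SE 0.051, 95% interval 0.023 to 0.25), with an unadjusted limma p of 0.0234 and an adjusted p of 0.414, and Il6ra was not called. Il6ra shares 242 exon bases with Gm42809 on the opposite strand.

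The promoter of Il6ra is shown as that of the other receptor gene whose groups did not overlap. It covers 250 bases before the RefSeq start (chr3:89913197-89913446, reverse strand of GRCm38.p6), with motif matches in capitals.
Il6ra promoter: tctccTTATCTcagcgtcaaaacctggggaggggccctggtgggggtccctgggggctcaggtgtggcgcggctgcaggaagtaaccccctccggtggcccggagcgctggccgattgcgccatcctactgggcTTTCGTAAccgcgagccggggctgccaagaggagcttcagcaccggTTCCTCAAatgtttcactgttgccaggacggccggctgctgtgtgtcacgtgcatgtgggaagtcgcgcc

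It held 1 match to the GATA letters, 1 to the PU.1 letters and 2 to the C/EBP letters, and the last of these overlaps the PU.1 match. The motif held by both printed promoters was that of PU.1, which 23.3% of all promoters hold. G and C made up 65.2% of the Il6ra promoter and 56.4% of the Csf2rb2 promoter.

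Il6st, the signalling chain gp130 that IL-6 shares with related cytokines (ENSMUSG00000021756; chromosome 13, 112464070 to 112510086, forward strand), had 5075, 4478, 4068 and 5319.9 normalized counts across wild-type libraries and 5278, 4443 and 5121 in those labelled PROSER1 KO. It varied most among the 10 genes within wild-type, with a coefficient of variation of 12.0%, and the groups overlapped. limma gave a log2 fold change of 0.07 (95% interval -0.15 to 0.29, adjusted p = 0.877) and -0.003 without wild-type replicate 3. Per kilobase, Il6st stood at 2.11 times the level of Il6ra across wild-type libraries and 2.01 times in those labelled PROSER1 KO (means), with overlapping ratios.

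Ifngr1, the chain that binds interferon gamma (ENSMUSG00000020009; chromosome 10, 19591949 to 19610229, forward strand), had 4053 to 4486 normalized counts across wild-type libraries and 4021 to 4575 in those labelled PROSER1 KO. The ranges were nearly the same, with a log2 fold change of 0.02 (95% interval -0.11 to 0.15, limma adjusted p = 0.951) whose sign changed without wild-type replicate 4 (-0.002) and without PROSER1 KO replicate 1 (-0.03). Its partner chain Ifngr2 had 986 to 1057 normalized counts across wild-type libraries and 1122 to 1129 in those labelled PROSER1 KO, without overlap (log2 fold change 0.15, adjusted p = 0.426, not called). Per kilobase, Ifngr1 stood at 5.54 times the level of Ifngr2 across wild-type libraries and 5.04 times in those labelled PROSER1 KO (means), with overlapping ratios.

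Ifnar1, a chain of the receptor for type I interferons (ENSMUSG00000022967; chromosome 16, 91485238 to 91507441, forward strand), had 4200.3, 4239.6, 4232 and 4208 normalized counts across wild-type libraries and 4638, 4099.8 and 4788 in those labelled PROSER1 KO. The wild-type values were closer together than those of any other of the 10 genes, with a coefficient of variation of 0.445%, below the 1.56% that counting error alone gives at this depth. That of the libraries labelled PROSER1 KO was 8.03%, with PROSER1 KO replicate 2 below all wild-type libraries and the other two above them. Its log2 fold change was 0.09 (SE 0.057, 95% interval -0.04 to 0.22, limma adjusted p = 0.640). Its partner Ifnar2 had a log2 fold change of 0.04 (adjusted p = 0.890), whose sign changed without PROSER1 KO replicate 1, and the ratio of Ifnar1 to Ifnar2 per kilobase averaged 0.622 across wild-type libraries and 0.649 in those labelled PROSER1 KO.

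Il1r1, the signalling receptor for IL-1 (ENSMUSG00000026072; chromosome 1, 40225080 to 40317257, forward strand), had 3538, 3415, 3654 and 3224 normalized counts across wild-type libraries and 3390.3, 3224 and 2868 in those labelled PROSER1 KO. The groups overlapped, with PROSER1 KO replicate 3 below all other libraries. The log2 fold change, -0.13 (SE 0.068, 95% interval -0.28 to 0.02, limma adjusted p = 0.572), was the lowest of the 10 genes. Il1rap, the accessory chain that Il1r1 needs to signal, had 805 to 880 normalized counts across wild-type libraries and 842 to 971 in those labelled PROSER1 KO (limma log2 fold change 0.11, adjusted p = 0.682). Per kilobase, the ratio of Il1r1 to Il1rap was 7.18, 7.36, 7.95 and 7.15 across wild-type libraries and 6.86, 5.93 and 6.08 in those labelled PROSER1 KO. These ratios did not overlap and were not tested, and with the length of the longest transcript the wild-type mean of 7.41 became 3.22.

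Levels of different receptor genes were set side by side per kilobase of exon. In wild-type, Csf3r had the highest level, 2118 ± 187 normalized counts per kilobase (SD, n = 4), followed by Ifngr1 (1486 ± 64.1), Csf2ra (795 ± 46.5), Ifnar1 (710.5 ± 3.16), Il1r1 (543 ± 28.9), Il6st (427 ± 51.2), Csf2rb (394 ± 30.6), Il3ra (381 ± 11.5), Il6ra (202 ± 6.62) and Csf2rb2 (119 ± 9.99). The ranges of neighbours in this order were separate except for Il6st with Csf2rb and Csf2rb with Il3ra. Csf3r stood 17.7 times as high as Csf2rb2. Among 16195 tested genes with a length, 94.8% had a lower level per kilobase than Csf3r and 92.2% than Ifngr1, but 49.3% than Il6ra and 38.9% than Csf2rb2. In the libraries labelled PROSER1 KO the order was the same except that Csf2rb (463 ± 28.1) stood above Il6st (446 ± 40.0; SD, n = 3). Csf2rb2 remained the lowest there at 180.01 ± 14.1. With the length of the longest transcript in place of all exons, Ifnar1 stood above Csf2ra and Csf2rb above Il6st in wild-type.

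**Figure D4:**
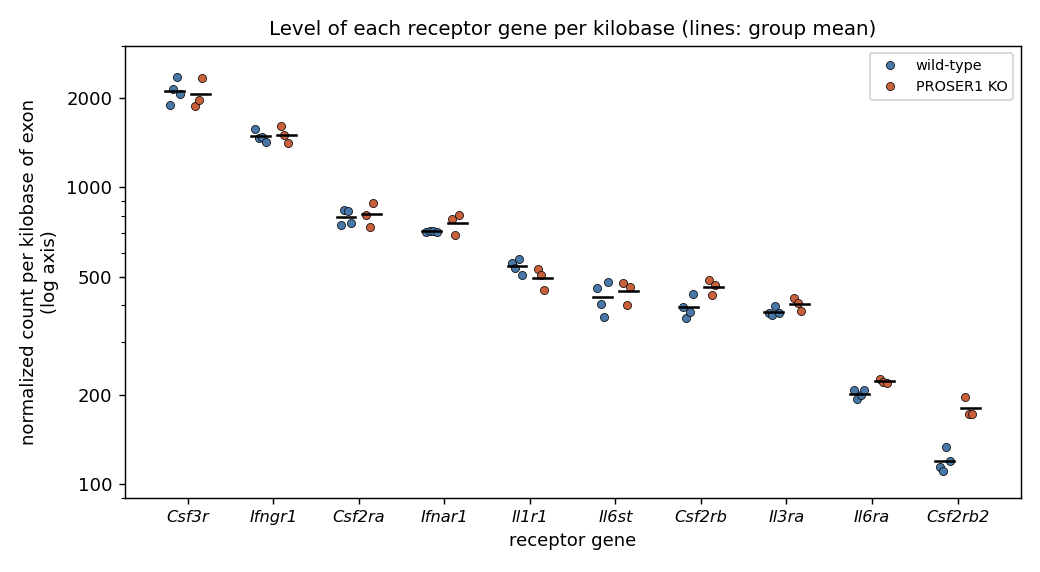
Normalized counts per kilobase of exon (y axis, log scale) of the 10 receptor genes (x axis, ordered by wild-type mean). Points are libraries and lines group means. Csf3r at 2118 and Csf2rb2 at 119 are the ends of the order in wild-type.

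Across libraries, the receptor genes did not all move together. The highest Pearson correlations over the 7 libraries, on log2(normalized count + 1), were between Csf2rb and Il6ra (0.926), Csf2rb2 and Il6ra (0.891), Csf2rb and Csf2rb2 (0.825) and Csf2rb2 and Il3ra (0.822). When each value was taken as a deviation from its group mean they were 0.784, 0.285, 0.346 and 0.844 in the same order. The value for Csf2rb2 with Il3ra was not particular to this pair. By such deviations Il3ra with Il1r1 was highest (0.868, against 0.115 before), and Csf2rb with Il6st (0.832) and Ifngr1 with Il1r1 (0.828) were close. The libraries share a size factor each, and the correlations are given as a description. Relative to the wild-type mean, 8 of the 10 genes were higher in PROSER1 KO replicate 1, 5 in replicate 2 and 8 in replicate 3, with median log2 deviations of 0.15, -0.01 and 0.13.

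Marker lists were compared as summed normalized counts to see which other cells moved with the receptor genes. For all 13 lists the sums of the groups overlapped. The median log2 fold change over the tested genes of a list, which does not weight abundant genes, was 0.44 for stromal and endothelial, 0.31 for monocyte and macrophage, 0.25 for megakaryocyte and erythroid, 0.15 for long-term stem cell, -0.28 for mast cell and basophil, -0.28 for eosinophil and -0.20 for B-lineage and plasma cell genes, and lay between -0.11 and 0.08 for the other 6 lists, against 0.0015 over all tested genes. Genes of the B-lineage and plasma cell list went both ways, with log2 fold changes from -0.61 to 1.58. Those with an unadjusted limma p under 0.05, Ebf1, Pax5 and Igll1, had log2 fold changes above 0, and none was called by limma. Each was highest in PROSER1 KO replicate 1 (494, 303 and 70.9 normalized counts), and the groups of Ebf1 and Pax5 overlapped. By limma 0 of the 120 marker genes tested were called, with 19 at an unadjusted p under 0.05 (9.73% over all tested genes), 0 called by edgeR (0.246% over all tested genes) and 2 by DESeq2 (Id2 and Mcpt8, named after their values were seen; 0.997% over all tested genes). The 9 granulocyte precursor genes, led by Mpo, summed to 26710 to 33087 normalized counts across wild-type libraries and 26536 to 31663 in those labelled PROSER1 KO. The 12 monocyte and macrophage genes, led by Ly6c2, summed to 2729.9 to 4339 and 3199.5 to 3829. The 10 mast cell and basophil genes, led by Cpa3, summed to 1692 to 2735 and 1711 to 1877.

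No list was absent, as 0 genes of any list were at 0 in all libraries. The 11 long-term stem cell genes, led by Hlf, summed to 34987 to 38697 across wild-type libraries and 34953 to 37938 in those labelled PROSER1 KO, and the 8 genes of multipotent and lymphoid-primed progenitors, led by Dntt, to 98366 to 127997 and 104365 to 129225. Megakaryocyte and erythroid genes (11, led by Itga2b) summed to 6104 to 7740 and 7147 to 9720.3. T and innate lymphoid genes (13, led by Nkg7) summed to 7336 to 10277 and 6772 to 9836, dendritic cell genes (8, led by Flt3) to 29111 to 35641 and 29802 to 38953, and stromal and endothelial genes (9, led by Pecam1) to 7899.5 to 9583 and 9279 to 9749. The sums are weighted to the most abundant genes, so single markers were counted as well. The groups did not overlap for 14 of the 120 marker genes tested, a share close to the 10% of all tested genes. Of these 14, 7 had a positive and 7 a negative log2 fold change. They came from 8 of the 13 lists, 4 from that of long-term stem cell genes, which went in both directions. Their part in the values of Csf2rb2 and Il6ra was not tested. PROSER1 KO replicate 1 stood apart for Cd3g (697 normalized counts against 20.9 to 52.9 in the other libraries) and Cd3e (197 against 5.75 to 24.0). It also stood apart for Rag1 (2920 against 686 to 1240). This library had the highest Csf2rb2, Csf2rb, Il3ra and Il6ra of all 7, and a relation between these values was not tested.

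**Figure D5:**
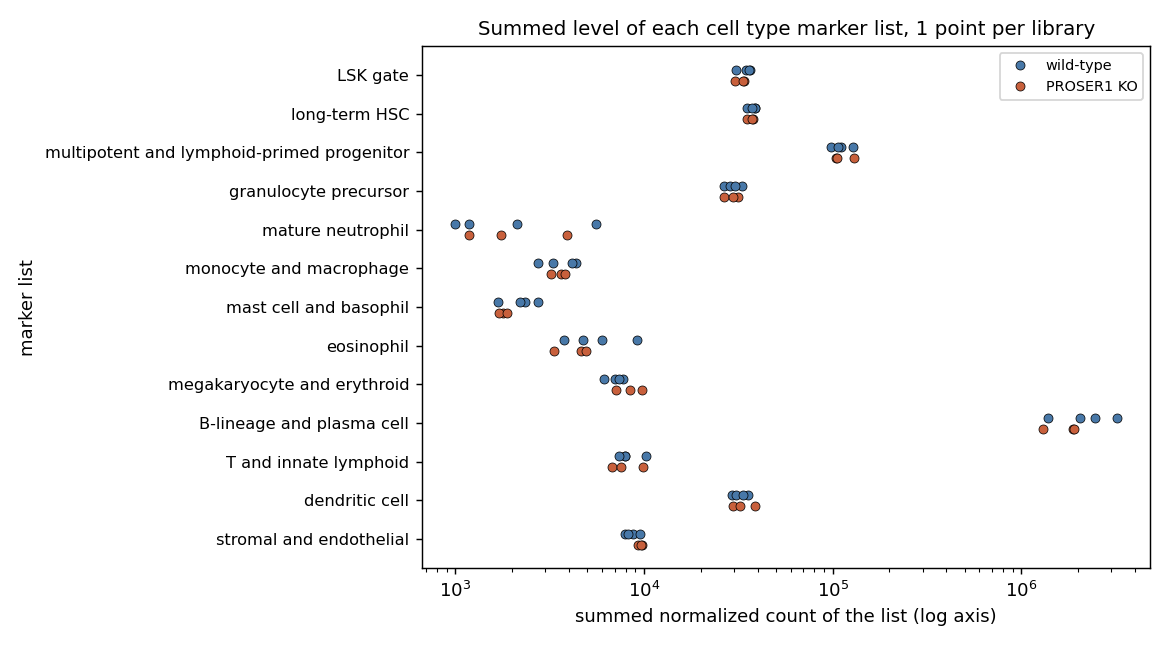
Summed normalized counts (x axis, log scale) of 13 lists of cell type marker genes (y axis), with 1 point for each library. Wild-type and PROSER1 KO libraries overlap in each list, and the mature neutrophil sums spread most, from 997 to 5548.

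The rest of the pathway was read from 6 lists with 142 genes, of which 129 were tested. By limma 0 were called (0.258% over all tested genes), and 1 had an adjusted p under 0.05, beside 50 of all 16251 tested genes. An unadjusted limma p under 0.05 was found for 17 (9.73% over all tested genes), and 12 had groups that did not overlap (10% over all tested genes). By list, where a gene can stand in more than 1, it was found for 9 of 36 other cytokine receptors, 3 of 14 ligands and 1 of 27 transducers. The others were 2 of 21 negative regulators, 3 of 25 cytokine response genes and 0 of 12 regulators of receptor genes. edgeR called 0 of the 129 (0.246% over all tested genes) and DESeq2 called 3 (Il18r1, Il9r and Lif), beside 0.997% over all tested genes. The median log2 fold changes were 0.005 for 36 other cytokine receptors, -0.003 for 14 ligands, 0.01 for 27 transducers, 0.05 for 21 negative regulators, 0.07 for 25 cytokine response genes and 0.003 for 12 regulators of receptor genes, against 0.0015 over all tested genes.

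Ligands of several of the receptors were at or near 0. Ifnb1 and Ifna1 were at 0 in all 7 libraries, and Csf3, Il3 and Il1b did not pass 1.16 normalized counts in any. Il6 had 3.45 to 9.62 normalized counts across wild-type libraries and 8.35 to 34.7 in those labelled PROSER1 KO, with overlap (log2 fold change 1.54, SE 0.57, limma adjusted p = 0.423). At these low counts the size of the Il6 difference depended on the setting, from 0.86 with a pseudocount of 10 to 2.01 without PROSER1 KO replicate 1, and without PROSER1 KO replicate 2 its mean was too low to be tested. Lif, whose receptor contains Il6st, had 117, 80.2, 82.8 and 64.9 normalized counts across wild-type libraries and 37.6, 34.7 and 29.8 in those labelled PROSER1 KO. The groups of Lif did not overlap. Its log2 fold change was -1.29 (SE 0.25, limma adjusted p = 0.0944), not called in limma, and it was called with robust variance estimates (adjusted p = 0.0452) and by DESeq2 (adjusted p = 0.00353).

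Among the other receptors, Il18r1, the chain that binds IL-18 and a relative of Il1r1, had 1799, 1476, 1259 and 1484 normalized counts across wild-type libraries and 1177, 813 and 917 in those labelled PROSER1 KO. The groups did not overlap. limma gave a log2 fold change of -0.64 (SE 0.14, adjusted p = 0.148), not called in limma and called by DESeq2 (adjusted p = 0.000154). Ghr, the growth hormone receptor, had 138 to 191 normalized counts across wild-type libraries and 217 to 249.6 in those labelled PROSER1 KO (log2 fold change 0.54, SE 0.16, adjusted p = 0.282), without overlap.

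Downstream of the receptors, Irf9, a transcription factor of type I interferon signalling, had 3745 to 4370.1 normalized counts across wild-type libraries and 4393 to 4792 in those labelled PROSER1 KO, without overlap (log2 fold change 0.20, limma adjusted p = 0.345). Gab2, an adaptor in signalling from the beta chain, had a log2 fold change of 0.13 with overlapping groups (adjusted p = 0.524). Of the negative regulators, Socs4 (0.27, adjusted p = 0.247) and Socs5 (0.29, adjusted p = 0.228) had the lowest p, both with groups that did not overlap.

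Gbp3, a guanylate-binding protein gene that interferon gamma induces, had 1964, 2135, 1947 and 1850.2 normalized counts across wild-type libraries and 2757, 2778 and 2635 in those labelled PROSER1 KO. The groups were far apart relative to their spread. The estimate was a log2 fold change of 0.47 (SE 0.059, limma adjusted p = 0.0116), a fold change of 1.38, so that Gbp3 passed the threshold of the adjusted p but not that of the fold change. The adjusted p of Gbp3 was above 0.05 without PROSER1 KO replicate 1 (0.0595) and without PROSER1 KO replicate 2 (0.0669), and in limma without a mean-variance trend (0.0917), with log2 fold changes of 0.457, 0.451 and 0.466 in the same order. Ifngr1, the receptor chain for this ligand, had a log2 fold change of 0.02. Among the regulators of receptor genes, Myb (-0.06, adjusted p = 0.782) and Etv6 (-0.08, adjusted p = 0.674) had the lowest p-values, and 0 of the 12 had an unadjusted p under 0.05.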

How the data were processed

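RNA was measured in 7 LSK libraries, 4 of them wild-type and 3 PROSER1 KO. The authors used Trimmomatic for trimming, STAR for mapping to mm10 and featureCounts for counting read pairs. DESeq2 gave the size factors and was also their test of differential expression. The deposited values are counts over size factor, a normalized signal per gene, without a filter on low values. The study's methods name GENCODE M25, the table's header another release, and the use of the strand in counting is not stated. Whole read pairs were recovered by dividing by the smallest step in a library (100% whole within 0.01 read pairs). Groups follow the labels, with 0 columns unused. Depth was 33143619 to 45140743 read pairs, and 3 read pairs were taken as the limit of a count of 0. Replicates differed by more than counting error (30.4 to 96.6 as chi-square per degree of freedom).

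limma 3.58.1 (R 4.3.3; lmFit, then eBayes with trend) was fitted to log2(normalized count + 1) of 16251 genes whose mean was at least 10. A call required an adjusted p under 0.05 and a fold change above 1.5. On recovered read pairs, edgeR 4.0.16 (quasi-likelihood) called 40 genes and DESeq2 1.42.0, fitted without that filter, called 165, of which 162 are among the 16251. The other alternatives were a pseudocount of 0.1 or 10, omission of the filter or a mean of at least 50, eBayes with no trend, robust eBayes, quantile and TMM scaling, calls by adjusted p alone, a block for the replicate number, omission of each library, lengths of the longest transcript, and a share of Csf2rb2 per kilobase. Omission of wild-type replicates 1 and 4 together, and the ratios of partner chains, were chosen after seeing the data. The procedures were also run on simulated data, whose outcome is not given here and on which no result rests.

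The rule for named genes took the 10 receptor genes, Proser1, in each pathway list every called gene and the 2 with the lowest limma p, every tested gene within 250 kb of Csf2rb or Csf2rb2, the most abundant gene of each marker list, Kit and Ly6a, and the 5 genes most correlated with the receptor gene of lowest p. Il9r, Id2, Mcpt8, Cd3e, Cd3g, Cd4, Cd8a, Trac, Gzma, Rag1, Ebf1, Pax5 and Igll1 were named after their values were seen. So were the partner chains and ligands given beside their receptor. The members and lists were chosen with earlier results of these data known. Positions, lengths and coding sequences are those of GENCODE M21 (GRCm38), promoters those of RefSeq (GRCm38.p6), and Biopython 1.88 aligned the coding sequences.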

Additional observations from a re-analysis of the deposited data

Results flagged for a closer look

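Groups of 4 wild-type values were checked for a library far from the others, as the gap to the nearest value divided by the range. Cd3e, Cd3g, Cd4, Cd8a, Trac, Gzma, Rag1, Ebf1, Pax5 and Igll1 were not checked. The check covered each other tested gene named here, each summed marker list, the sum and share of the beta chain genes and each ratio of partner chains, 80 groups in all. Chance alone marks about 1 in 20 such groups, and 4 were marked here. Ncf4 stood at 1939 normalized counts in wild-type replicate 4 and at 1670 to 1710.3 in the other wild-type libraries (gap over range 0.849). Rac2 stood at 11922 in wild-type replicate 2 and at 12650 to 12714 in the others (0.920). Appl1 stood at 3679 in wild-type replicate 3 and at 3591 to 3600.3 in the others (0.899). Ifnar2 stood at 3669.9 in wild-type replicate 2 and at 3843 to 3863 in the others (0.897). None of the 10 receptor genes was among them.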

How the results depend on the processing

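The direction of Csf2rb2 was the same under all 20 alternatives run, with log2 fold changes of 0.53 to 0.65, adjusted p-values from 7.71e-06 to 0.276, and a call under 10 of the 20. It was not called with a pseudocount of 10 (0.584), without a mean-variance trend (0.591), with the replicate number as a block (0.593) or with wild-type replicates 1 and 4 left out, chosen after seeing the data (0.565), and 0 receptor genes were called under these. With 1 library left out its log2 fold change was 0.527 to 0.645 (0 to 1 receptor genes called), with fewer samples by construction. The replicate numbers do not pair libraries (correlations of their deviations 0.023, 0.058 and -0.106), so the block is not a pairing. The 9 other receptor genes were called under none of the 20.

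The number of genes called was 17 without trend, 80 with robust variance estimates, 165 by DESeq2, 20 with wild-type replicates 1 and 4 left out, and 23 to 42 with 1 library left out. In the pathway lists DESeq2 called 2 other receptors and 1 ligand, robust variance estimates 1 ligand, and no fold change minimum 1 response gene.

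Signs changed with 1 library left out, where log2 fold changes ran from -0.04 to 0.093 for Csf2ra, -0.135 to 0.022 for Csf3r, -0.003 to 0.143 for Il6st, -0.03 to 0.063 for Ifngr1, -0.043 to 0.026 for Ift27, -0.094 to 0.01 for C1qtnf6, -0.012 to 0.022 for Rac2, -0.06 to 0.06 for Cyth4 and -0.025 to 0.077 for Ifnar2. They changed as well with wild-type replicates 1 and 4 left out for Csf2ra (-0.046), with the block for Ifngr1 (-0.002) and with quantile normalization for Cyth4 (-0.001). None of these genes was called.

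With the length of the longest transcript, wild-type levels per kilobase were 2003 for Ifngr1, 1002 for Csf2ra, 1079.6 for Ifnar1, 594 for Il1r1, 546 for Il6st, 585 for Csf2rb and 489 for Il3ra. Per kilobase of exon, the share of Csf2rb2 was 23.3% in wild-type and 28.0% in PROSER1 KO libraries. Beyond fewer samples and other lengths, the cause of these shifts was not tested. Log2 fold changes were recomputed for 32 genes besides the receptor genes, not for most marker genes, and 622 of these 637 values kept direction and call. Gbp3, with an adjusted p of 0.0116, had 0.0917 without trend, 0.0575 with the block, 0.126 with wild-type replicates 1 and 4 left out, and 8.1e-09 by DESeq2, at log2 fold changes of 0.466, 0.435, 0.417 and 0.464. With 1 library left out its log2 fold change was 0.435 to 0.504.

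Limits are the small number of libraries, the near identity of Csf2rb and Csf2rb2, for which the handling of shared reads is not stated, an annotation release that differs between the methods and the table, Proser1 RNA that was not lower in the libraries labelled PROSER1 KO, and RNA of other cells in the sorted population. Depth, at least 489 read pairs for each of the 10 receptor genes, was enough to test them but bears on their precision. The wild-type coefficient of variation was no larger than that of counting error for Il3ra (3.012% against 3.021%) and Ifnar1 (0.445% against 1.563%). It was larger for Il6ra (3.286% against 2.434%) and Csf2rb2 (8.36% against 4.28%). Depth also limits Il6, Gm6723 and the ligands near 0.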
